A study of Homo sapiens with 6 samples.

Results

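ATF4 and 9 genes of the integrated stress response were followed in HEK293T cells in which the RNA helicase DDX3X was knocked down or overexpressed. The 10 genes are ATF4, ATF3, ATF5, DDIT3, CEBPG, TRIB3, CHAC1, PPP1R15A, DDIT4 and SESN2, out of 23204 gene symbols in the expression tables. They were chosen by their place in the pathway together with their measured RPKM ratios in these libraries (the siRNA pair and each construct against GFP), and each symbol is represented by the transcript row of highest mean expression over the 6 libraries. Their levels and ratios are therefore given as a description, without tests, and are no independent support for any pattern. HEK293T is a human embryonic kidney line that carries the large T antigen of simian virus 40, a protein that binds p53. Libraries prepared from total RNA were sequenced, in 6 groups of 1 library each. In the siRNA arm, cells received a control siRNA or an siRNA pool against DDX3X for 48 h, and no sorting was described. In the plasmid arm, cells were transiently transfected with 5 µg of plasmid and sorted for GFP after 32 h (another part of the protocol text gives a shorter time). The plasmids encoded GFP alone, GFP-WT DDX3X, GFP-DDX3X T275M or GFP-DDX3X G302V, the mutants being associated with cancer. GFP is common to all plasmid groups, and no removal of endogenous DDX3X is described in them. The study's own plot of these data names another mutant in place of T275M, and what is written here of T275M depends on the label being right.

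The integrated stress response joins several kinases that sense amino acid shortage, misfolded proteins, viral RNA or haem deficiency and phosphorylate the initiation factor eIF2α. General translation then falls, while the mRNA of ATF4 is translated better because of the upstream open reading frames in its leader. ATF4 is a leucine zipper activator that, with partners of the C/EBP family, induces genes of amino acid supply, redox balance, feedback and cell death. DDX3X is a DEAD-box helicase with roles in translation initiation and in stress granules.

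With 1 library per group, no difference between conditions could be tested. Expression is given as RPKM (reads scaled to transcript length in kilobases and to 1000000 reads of the library) and ratios as differences of log2(RPKM + 1), which understate the change of weakly expressed genes. The intervals are exact 95% counting intervals (Clopper-Pearson for ratios) from the reads behind each value. They cover counting error only, not the variation between cultures. A gene is called higher or lower past a ratio of 1.5-fold, and entered a comparison with at least 1 RPKM and at least 10 reads in 1 of its libraries. All 10 genes entered every comparison. Library depth was 43720000 to 67520000 reads in 5 libraries and 180870000 reads in the DDX3X siRNA library. DDX3X itself stood at 31.3 RPKM with its siRNA and 107 with control siRNA (29.3%), and at 1906 to 3279 RPKM in the 3 construct libraries, of which G302V was lowest, against 119 with GFP. The knockdown and the overexpression were thus visible in the libraries labelled for them. The labels call the cells neuronal. Of 8 neuronal markers, RBFOX3, MAP2, STMN2 and SLC17A7 stayed under 1 RPKM in all 6 libraries, while TUBB3 (5.60 to 9.28 RPKM), SYP (2.74 to 5.59) and GAD1 (2.82 to 4.31) were above it throughout. The 8 summed to 13.5 to 20.7 RPKM. Of 8 genes listed for the kidney line 6 were at 1 RPKM or more throughout, and the list summed to 938 to 1144 RPKM. Most of that sum came from NEFM (514 to 683 RPKM), VIM and NEFL (109 to 140 RPKM), and NEFM, NEFL and INA are neurofilament genes that neurons also express, while the kidney gene PAX2 stayed under 1 RPKM. The lists therefore do not settle the cell type label. Markers of blood cells summed to at most 0.753 RPKM and those of fibroblasts to 2.66 to 6.27 RPKM. In bulk RNA, fewer cells expressing a gene and less RNA per cell cannot be told apart.

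ATF4 and C/EBP proteins bind a composite element that joins parts of their own sites, and ATF proteins bind the cAMP response element. The core of the composite element, TGATGNAA or its reverse complement TTNCATCA, was present in the RefSeq promoter windows (300 bases, from 250 before to 50 after a start site) of ATF3, CHAC1 and CEBPG. That is 3 of 10 genes, against 4.46% of the 27305 genes with a window. The cAMP response element TGACGTCA, which overlaps none of these matches, was present in PPP1R15A alone among the 10, against 2.25% of all genes. CCAAT or ATTGG was present in 6 of 10 (ATF3, DDIT3, CHAC1, CEBPG, DDIT4 and SESN2), against 39.7% of all genes. The 4 matches shown are all those of the composite core and the cAMP response element among the 10 genes. CHAC1, ATF3 and PPP1R15A carry large differences below, and CEBPG, with the composite core as well, the smallest range. ATF4, DDIT3 and DDIT4, which are also called below, have neither. The sequences are from the GRCh37 genome, plus strand, 5′ to 3′, with the matching letters in capitals. Each lies upstream of the start site of the window that holds it, and distances are counted from that start site. ATF3 and CEBPG each have another window, with another start site, that lacks the core. The CHAC1, CEBPG and PPP1R15A matches lie inside the gene positions given below, which begin further upstream.
ATF3, chr1:212738547-212738576, 191 bases before its start: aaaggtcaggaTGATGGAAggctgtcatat
CHAC1, chr15:41245449-41245478, 209 bases before its start, core on the opposite strand: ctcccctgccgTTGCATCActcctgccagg
CEBPG, chr19:33864966-33864995, 42 bases before its start: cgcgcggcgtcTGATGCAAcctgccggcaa
PPP1R15A, chr19:49375609-49375638, 58 bases before its start: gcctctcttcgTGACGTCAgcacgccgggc
A match of letters is not a bound site, and for genes without a match it says only that these letters are not in the window.

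ATF4 was by far the most abundant of the 10 per transcript length, at 270 to 487 RPKM, and the least abundant were TRIB3, ATF5 and CHAC1. The gene lies at chr22:39915700-39918688 of GRCh37 on the plus strand, and its processed pseudogenes ATF4P1 to ATF4P4 could share reads with it. ATF4 stood at 487 RPKM with GFP, 480 with GFP-WT DDX3X, 415 with T275M, 380 with G302V, 453 with control siRNA and 270 with DDX3X siRNA. The DDX3X siRNA library was lowest and the order of all 6 was beyond counting error at each step. Among the other genes, mean levels over the libraries ran from 58.4 RPKM for DDIT4 to 6.77 for TRIB3. CHAC1 had the largest range, 12.3-fold between its highest and lowest library, and CEBPG the smallest, 1.24-fold.

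**Figure D1:**
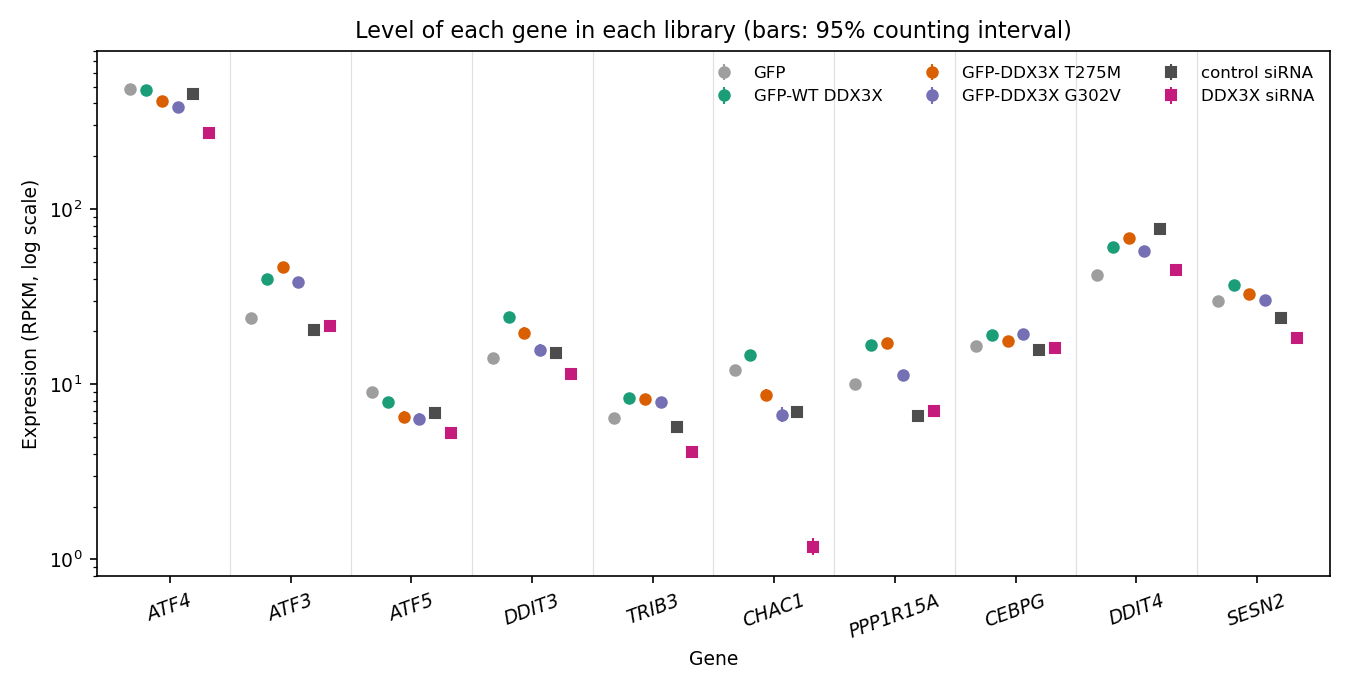
Expression of the 10 genes in the 6 libraries, as RPKM on a log axis, with 1 point per library (circles, plasmid arm; squares, siRNA arm) and 95% counting intervals, mostly smaller than the points. ATF4 lies at 270 to 487 RPKM in every library, and the single point near 1 is CHAC1 in the DDX3X siRNA library (1.18 RPKM).

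DDX3X knockdown was compared first. ATF4, CHAC1 and DDIT4 were lower than with control siRNA past 1.5-fold and none of the 10 was higher, where 0.961% of the 12694 genes that entered the comparison were called lower and 1.04% higher. At 2-fold, CHAC1 alone remained, against 0.110% of all genes in either direction. The median log2 ratio of the 10 genes was -0.35, and that of all genes -0.02. ATF4 mRNA was at 59.6% of its control level, a log2 ratio of -0.74 (-0.76 to -0.73) from 69330 and 43404 reads. Among the 161 genes at 300 to 1000 RPKM in the control library the median log2 ratio was -0.12, and 2 of them, ATF4 included, were called lower.

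CHAC1, an enzyme that degrades glutathione and a well known transcriptional target of ATF4 and CHOP, is at chr15:41245160-41248710 on the plus strand. Its level was 6.91 RPKM with control siRNA and 1.18 with DDX3X siRNA, or 17.1% of control. The log2 ratio of -1.86 (-1.98 to -1.73) was the lowest of all 12694 genes, below that of DDX3X itself (-1.74). It rests on 305 reads in the deeper DDX3X siRNA library and 665 in the control library. DDIT4, an inhibitor of the growth kinase mTORC1 at chr10:74033678-74035794, had 76.6 RPKM with control siRNA and 45.0 with DDX3X siRNA, at -0.75 (-0.79 to -0.72). ATF4 and DDIT4 stood 42nd and 40th from the lowest of all genes.

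TRIB3, DDIT3, SESN2 and ATF5 were lower by less than 1.5-fold. TRIB3, a pseudokinase that binds and restrains ATF4, had 5.72 RPKM with control siRNA and 4.08 with DDX3X siRNA, at a log2 ratio of -0.40 (-0.50 to -0.31). DDIT3, which encodes the death-associated factor CHOP, had 15.0 and 11.5 RPKM, at -0.36 (-0.47 to -0.25). SESN2, a leucine sensor upstream of mTORC1, had 23.8 and 18.4 RPKM, at -0.35 (-0.39 to -0.31). In each of these 3 genes the DDX3X siRNA library was the lowest of all 6. ATF5, a relative of ATF4 that is also controlled by upstream reading frames, had 6.88 and 5.29 RPKM, at -0.33 (-0.42 to -0.23), and was likewise lowest in that library.

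The remaining genes hardly differed between the siRNA libraries. ATF3, a stress-induced relative of ATF4, had 20.4 RPKM with control siRNA and 21.4 with DDX3X siRNA, a log2 ratio of 0.06. CEBPG, a partner of ATF4 in heterodimers, had 15.6 and 16.2 RPKM, at 0.05. PPP1R15A, the stress-induced subunit that directs protein phosphatase 1 to eIF2α, had 6.59 and 7.06 RPKM, at 0.09, with a counting interval that included 0. Relative to ATF4 in the same library, which removes any scaling between libraries, the RPKM of CHAC1 was 0.287-fold its control proportion and that of DDIT4 0.985-fold. By the same measure ATF3, CEBPG and PPP1R15A stood at 1.76-, 1.74- and 1.80-fold. The genes thus did not keep their proportion to ATF4.

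**Figure D2:**
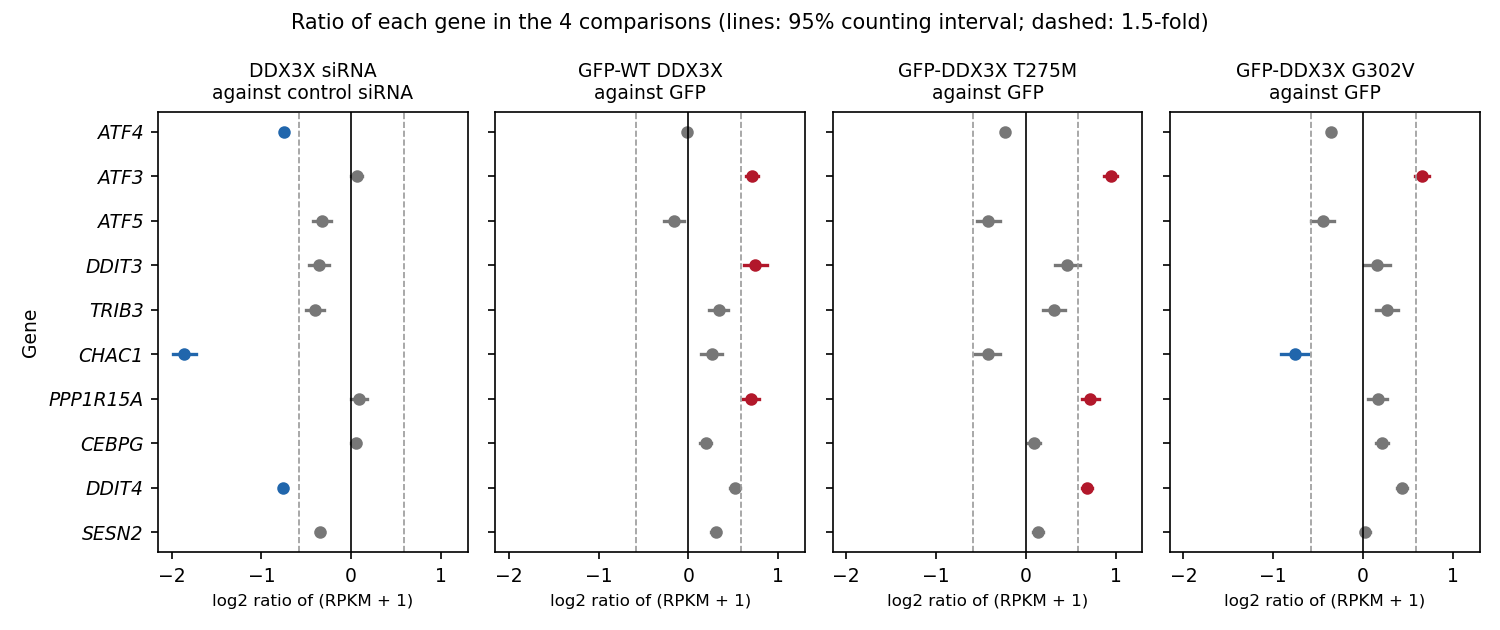
Log2 ratio of (RPKM + 1) for each of the 10 genes in the 4 comparisons, with 95% counting intervals and dashed lines at 1.5-fold. Blue points are called lower and red points higher, and CHAC1 with DDX3X siRNA (-1.86) lies furthest from 0, while ATF3 is red in all 3 panels of the plasmid arm.

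The plasmid arm was then compared with GFP alone. All 3 comparisons use the same GFP library, and a value that is high or low in it moves them together, so their similarity is not a result. ATF3, DDIT3 and PPP1R15A were higher with GFP-WT DDX3X and none of the 10 was lower, where 2.21% of 12915 genes were called in either direction, 1.97% as higher and 0.248% as lower. With T275M, ATF3, PPP1R15A and DDIT4 were higher and none lower, where 2.64% of 12912 genes were called, 2.25% as higher and 0.395% as lower. With G302V, ATF3 was higher and CHAC1 lower, where 1.77% of 12775 genes were called, 1.00% as higher and 0.767% as lower. None of the 10 was past 2-fold in these comparisons, where 0.248%, 0.372% and 0.305% of all genes were, in the order WT, T275M and G302V. The median log2 ratio of the 10 genes was 0.32, 0.23 and 0.16 in that order, and that of all genes 0.05, 0.07 and 0.03.

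ATF4 itself was not called in any of them. Its log2 ratio was -0.02 with GFP-WT DDX3X, -0.23 (-0.25 to -0.21) with T275M and -0.36 (-0.38 to -0.33) with G302V. Genes at 300 to 1000 RPKM in the GFP library had median ratios of -0.07, -0.16 and -0.15 in the same order. ATF5 had 9.01 RPKM with GFP, 7.96 with GFP-WT DDX3X, 6.49 with T275M and 6.32 with G302V. Its ratios of -0.16, -0.42 and -0.45 were also below 0, and the T275M and G302V libraries did not differ beyond counting error. ATF5 (chr19:50431959-50437192) shares 196 exonic bases with NUP62 and 75 with IL4I1 on the opposite strand, and the library kit does not mark strand, so their reads cannot be told apart there.

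ATF3, at chr1:212738676-212794119, was the only one of the 10 called in each construct library. It stood at 23.8 RPKM with GFP, 39.6 with GFP-WT DDX3X, 46.7 with T275M and 38.1 with G302V. The log2 ratios were 0.71 (0.64 to 0.78), 0.94 (0.88 to 1.01) and 0.66 (0.58 to 0.73), and WT and G302V did not differ beyond counting error. The GFP library and both siRNA libraries, at 20.4 to 23.8 RPKM, all lay below the 3 construct libraries. All 6 transcript rows of ATF3, which share reads, gave nearly the same ratio, 0.94 to 0.95 with T275M.

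DDIT3 was highest with GFP-WT DDX3X. It had 14.0 RPKM with GFP, 24.2 with GFP-WT DDX3X, 19.7 with T275M and 15.7 with G302V, giving log2 ratios of 0.75 (0.62 to 0.87), 0.46 (0.32 to 0.60) and 0.16 (0.01 to 0.30). Only the first was past 1.5-fold, and the G302V library did not differ from control siRNA beyond counting error. DDIT3 (chr12:57910371-57915520, minus strand) shares 219 exonic bases, 24.3% of its exons, with MARS1 on the opposite strand, named MARS in the tables. MARS, at 99.1 to 146 RPKM over the libraries, had log2 ratios of 0.22, 0.04 and -0.20 in the same comparisons. It was at -0.54 with DDX3X siRNA against control siRNA and at -0.41 for G302V against GFP-WT DDX3X. The part of MARS in the DDIT3 values was not tested in any comparison, those with the siRNA and between constructs included. CEBPG (chr19:33864591-33873592) had 16.5, 19.0, 17.7 and 19.3 RPKM in the order GFP, WT, T275M and G302V, with ratios of 0.19, 0.10 and 0.21, none of them called.

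PPP1R15A, the feedback phosphatase subunit at chr19:49375469-49379316, had 10.0 RPKM with GFP, 16.8 with GFP-WT DDX3X, 17.1 with T275M and 11.3 with G302V. The log2 ratios were 0.70 (0.61 to 0.78) with WT, 0.72 (0.62 to 0.81) with T275M and 0.16 (0.06 to 0.27) with G302V. The WT and T275M libraries did not differ beyond counting error and lay above all others. TRIB3 (chr20:343479-378203), the other feedback gene, had 6.39 RPKM with GFP and 8.33, 8.20 and 7.87 with the constructs, at ratios of 0.33, 0.31 and 0.26. Those 3 construct libraries could not be told apart beyond counting error between neighbours.

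CHAC1 took another course from ATF3. It had 12.0 RPKM with GFP, 14.6 with GFP-WT DDX3X, 8.71 with T275M and 6.69 with G302V, on 417 to 1304 reads. The log2 ratio was 0.26 (0.14 to 0.37) with WT, -0.43 (-0.56 to -0.29) with T275M and -0.76 (-0.91 to -0.61) with G302V, only the last being called. The G302V library and the control siRNA library, at 6.69 and 6.91 RPKM, did not differ beyond counting error.

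Both regulators of mTORC1 were above GFP to different degrees. DDIT4 had 42.3 RPKM with GFP, 60.9 with GFP-WT DDX3X, 68.3 with T275M and 57.4 with G302V, at log2 ratios of 0.52 (0.46 to 0.57), 0.68 (0.62 to 0.74) and 0.43 (0.37 to 0.49). The T275M value alone was past 1.5-fold, and the GFP library was the lowest of all 6. SESN2 (chr1:28586029-28609002) had 29.7, 36.9, 32.8 and 30.3 RPKM in the same order, at 0.30, 0.14 and 0.03, none called. For G302V the interval of SESN2 included 0.

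The mutants were also set against GFP-WT DDX3X, which shares the transfection and the sort. CHAC1 was the only gene of the 10 called between T275M and WT, at a log2 ratio of -0.68 (-0.81 to -0.55), where 0.347% of 12973 genes were called. Between G302V and WT, CHAC1 was at -1.02 (-1.16 to -0.88) and DDIT3 at -0.59 (-0.72 to -0.46), both called lower, where 1.76% of 12967 genes were called, 1.45% as lower and 0.308% as higher. CHAC1 was the only one past 2-fold, against 0.185% of all genes. Under median-ratio scaling, chosen after seeing the data, DDIT3 was at -0.54 and CHAC1 at -0.97, so DDIT3 fell short of 1.5-fold and CHAC1 of 2-fold. PPP1R15A was just short of the threshold of 1.5-fold, at -0.53 (-0.63 to -0.44). None of the 10 was called between G302V and T275M, where 1.20% of 12925 genes were called, and the furthest from 0 was again PPP1R15A, at -0.55 (-0.65 to -0.46). Its plain RPKM ratio there was 0.663, just past 1.5-fold, so the absence of calls depends on the 1 added to RPKM. DDX3X mRNA differed between the same libraries by a log2 ratio of 0.18 for T275M against WT and -0.60 for G302V against WT, and its part in these values was not tested.

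The control libraries of the arms differed from each other in several of these genes. GFP against control siRNA, which differ in reagent, time and sorting, gave 1 call higher and 1 lower among the 10, where 2.33% of 12730 genes were called. CHAC1 was higher with GFP, at 0.72 (0.59 to 0.85), and DDIT4 lower, at -0.84 (-0.90 to -0.79). The distance of DDIT4 between these controls was thus larger than in any of the 4 comparisons above. PPP1R15A was at 0.54 (a plain RPKM ratio of 1.52, just past 1.5-fold) and ATF5 at 0.34, whereas ATF4 was at 0.10. Beside these, 8 of 17 immediate-early genes were higher with GFP (ATF3 is often placed in that class but was not in the list), with EGR1 at 58.9 RPKM against 0.557, and none of the ATF6 and XBP1 list was called at a median of -0.34.

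Over all 6 libraries the 10 genes did not follow a single pattern. Likeness was measured as the root mean square difference of log2(RPKM + 1) after centring each gene on its mean over the 6 libraries, a description in which each point is 1 library. The closest pair was TRIB3 and SESN2 (0.083), followed by ATF4 and ATF5 (0.14), DDIT3 and SESN2 (0.16), DDIT3 and TRIB3 (0.17), and ATF3 and PPP1R15A (0.17). CHAC1 was furthest from DDIT4 (0.88) and CEBPG (0.87), and its large range, which this measure does not scale, adds to such distances. In the centred values ATF4 and ATF5 were highest with GFP, DDIT3, TRIB3, CHAC1 and SESN2 with GFP-WT DDX3X, ATF3 and PPP1R15A with T275M, CEBPG with G302V and DDIT4 with control siRNA. The DDX3X siRNA library was lowest for ATF4, ATF5, DDIT3, TRIB3, CHAC1 and SESN2.

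**Figure D3:**
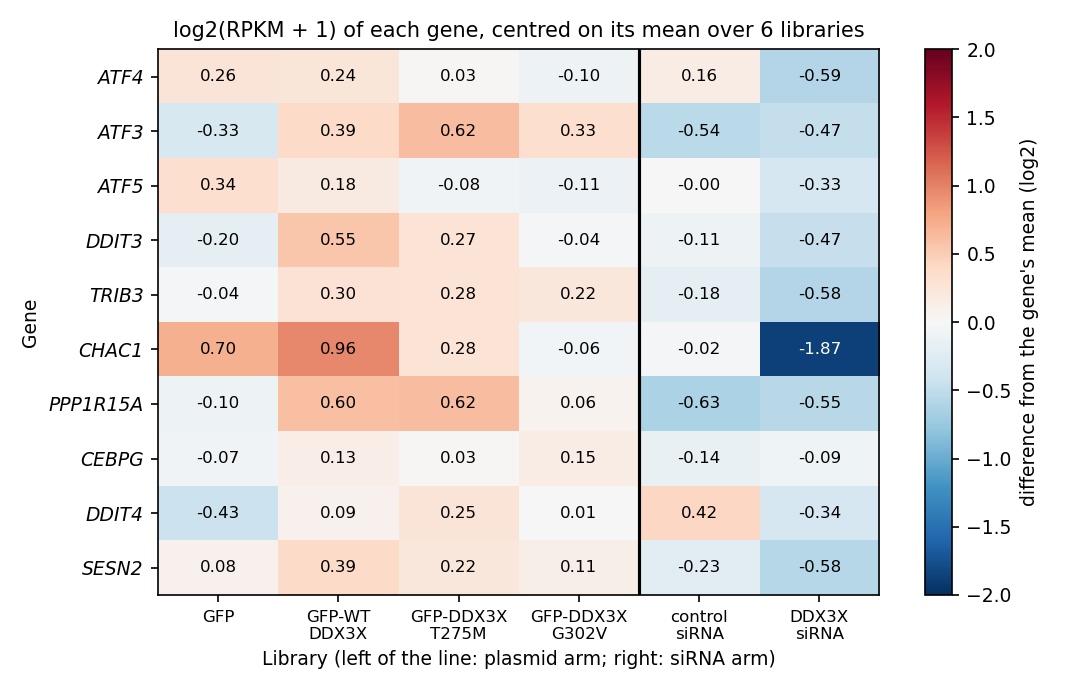
Heat map of log2(RPKM + 1) for the 10 genes (rows) in the 6 libraries (columns), each gene centred on its own mean, with the value printed in each cell. Red is above and blue below the gene's mean, and the darkest cell is CHAC1 with DDX3X siRNA (-1.87), while CEBPG stays within 0.15 of its mean.

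Among 9324 genes with a mean of 5 RPKM or more, those most like ATF4 over the 6 libraries were LINC00467 (0.06), HIRIP3 (0.07), LOC550643 (0.08), UBB (0.08) and NRGN (0.08). Like ATF4, all of these were lowest in the DDX3X siRNA library, HIRIP3 for example at 15.7 RPKM against 24.6 with control siRNA. They were picked by this likeness, and ATF4 lay furthest from its mean in that library (-0.59). Their shared low point follows from the selection and is no separate observation. The measure is not scaled to a gene's range, so larger distances are built in for CHAC1, the member of largest range. No gene came as close to CHAC1. Its nearest were SNORA51 (0.46), UHRF1 (0.49), SNORD24 (0.52), MIR647 (0.52) and CRABP2 (0.52), of which the small RNA genes are uncertain in a library of this kind.

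The genes around these 10 were described from lists written from general knowledge of the pathway, also with earlier results known. The 21 genes for the sensing kinases, eIF2 subunits and related machinery upstream of ATF4 had 0 calls in each of the 4 comparisons, with medians between -0.12 and -0.02. With 1.77% to 2.64% of all genes called in the plasmid comparisons, and 0.961% lower and 1.04% higher with the siRNA, 0 of 21 is near the share over all genes. With DDX3X siRNA, 4 lists of known ATF4 targets held 60 genes that entered the comparison, 11 of them lower and none higher (18.3% lower, against 0.961% of all genes), at a median log2 ratio of -0.26. Enzymes of amino acid and one-carbon metabolism made up 6 of the 11, among 16, and 15 of the 16 were below 0. The largest fall in that list was that of ASNS, asparagine synthetase, from 113 to 47.3 RPKM (-1.24, -1.27 to -1.20). Of 13 tRNA synthetase genes, all were below 0 and 2 were called, with CARS, the cysteinyl enzyme, lowest at -0.85. Of 10 amino acid transporters 2 were called lower, SLC7A11 (-1.30) and SLC7A3 (-0.81), which are named after their values were seen. At a minimum of 10 RPKM 6 transporters entered and 0 were called. A pseudocount of 10 also left 0 transporter calls, and one of 0.1 gave 3. In GFP against control siRNA, 50 of 61 genes of the 4 ATF4 target lists were also below 0, at a median of -0.16. Over all genes that median was 0.01. Of the 61, 1 was called, as lower (1.64%, against 2.33% of all genes in either direction). ASNS had 82.2 RPKM with GFP. Control siRNA was thus the higher of the control libraries for most of these targets. The 26 genes of the ATF6 and XBP1 branches of the unfolded protein response, which run beside the ATF4 branch, had 0 calls and a median of 0.17, with 21 above 0, and 19 p53 targets had 0 calls and a median of 0.13.

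The same lists looked different in the plasmid arm. With GFP-WT DDX3X, 6 of 62 ATF4 targets (9.68%) were higher and none lower, against 1.97% and 0.248% of all genes, at a median of 0.10. Of the 6, 5 were in the mixed list of other targets of ATF4 or CHOP, and CTH, cystathionine gamma-lyase, was the only enzyme (0.73). With T275M 4 of 63 (6.35%) were higher, against 2.25% of all genes, and with G302V 3 of 61 (4.92%), against 1.00%, with none lower and medians of 0.04 and -0.10. A pseudocount of 10 left 0, 1 and 0 of these calls in the order WT, T275M and G302V. The median for WT stayed above 0 when libraries were scaled by median ratios (0.01), that for T275M turned to -0.05 and that for G302V was -0.14. All 4 calls with T275M and all 3 with G302V were in the mixed list. The largest rise in the mixed list at 10 RPKM or more was that of TXNIP with WT and G302V, and of BBC3 with T275M. The enzyme, transporter and tRNA synthetase lists had no calls with either mutant at the main settings. Their medians were -0.07, -0.06 and -0.03 with T275M, and -0.17, -0.09 and -0.20 with G302V. Median-ratio scaling gave 1 transporter lower with T275M, and a pseudocount of 0.1 gave 1 lower with G302V. ASNS was at 0.30, 0.01 and -0.43 in the order WT, T275M and G302V. Between G302V and GFP-WT DDX3X, 7 of 62 ATF4 targets were lower (11.3%, against 1.45% of all genes) and none higher. Their median was -0.17, and that of all genes -0.03. Between T275M and WT, 0 of 63 were called, where 0.347% of all genes were, at a median of -0.08. Some of the ATF4 targets, BBC3, GDF15 and TNFRSF10B, also belong to the list of p53 targets. GDF15, named after its values were seen, went from 0.213 RPKM with GFP (14 reads) to 3.44 with WT, 5.34 with T275M and 1.45 with G302V, against 0.296 and 0.332 in the siRNA libraries. Of 21 p53 targets, 8 were higher with WT, 10 with T275M and 5 with G302V, against 1.97%, 2.25% and 1.00% of all genes, and none was lower, with medians of 0.36, 0.56 and 0.50. The largest rise in that list at 10 RPKM or more was that of CDKN1A, a cell cycle inhibitor, from 7.38 RPKM with GFP to 16.3, 22.7 and 21.1. Hypoxia targets, a group to which DDIT4 also belongs, were 0, 3 and 4 of 18 higher, and immediate-early genes 2 of 17, 5 of 18 and 0 of 17 higher, with 0, 1 and 3 lower. Over all genes the shares were 1.97%, 2.25% and 1.00% higher and 0.248%, 0.395% and 0.767% lower. In GFP against control siRNA, 2 of 18 hypoxia targets were lower (11.1%, against 2.33% of all genes in either direction). The largest fall there was that of P4HA1, which also had the largest rise with T275M and with G302V. The part of the shared GFP library in these rises was not tested. VEGFA is in the hypoxia list and among the ATF4 targets.

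**Figure D4:**
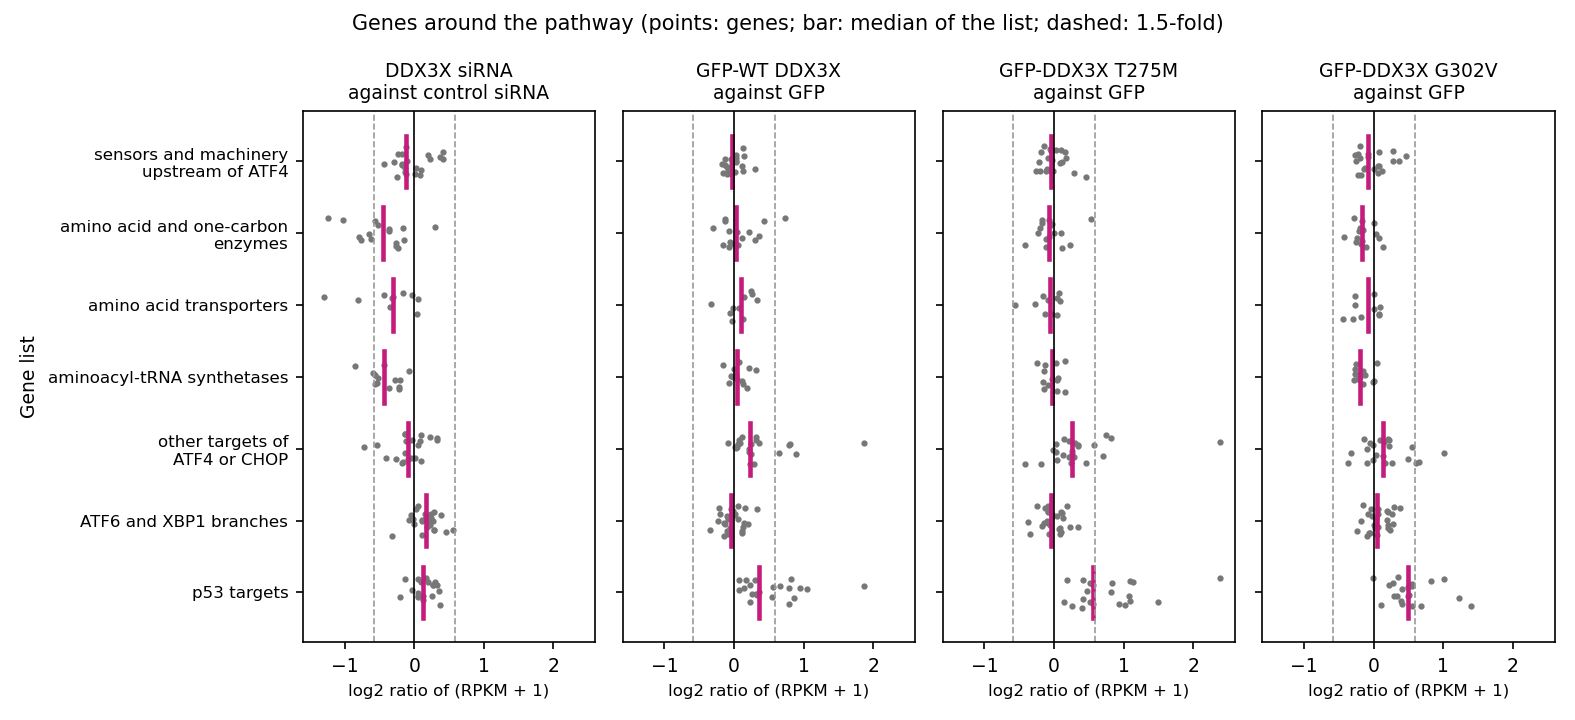
Log2 ratio of (RPKM + 1) for genes of 7 lists in the 4 comparisons, with 1 grey point per gene (vertical scatter has no meaning), the list median as a bar and dashed lines at 1.5-fold. With DDX3X siRNA the enzymes, transporters and tRNA synthetases lie mostly left of 0 (medians -0.44, -0.31 and -0.44), and with the constructs the p53 targets lie right of 0.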

How the data were processed

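The deposited values are RPKM, by the authors' file headers (the study's methods name FPKM). Per the methods and labels, the authors trimmed reads with cutadapt, dropped those under 21 bases, aligned them with BWA 0.5.5 to NCBI Build 37 (hg19), RefSeq, exon junctions and AceView, removed duplicates, and divided counts by length and total reads. Duplicate removal can lower abundant genes more in deep libraries. Tables hold 1 row per RefSeq accession (39618 rows), so isoforms share reads.

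RPKM times length fell on whole multiples of 1 step for 100% of the low rows checked (6339 to 7505 a library, tolerance 0.1), which gave reads and depths. A floor of 3 reads equals 0.0166 to 0.0686 per 1000000 reads. The pseudocount was 1. The script was tested on simulated data. The members, lists and rules for naming (all 10 genes, at most the largest rise and fall per list at 10 RPKM or more, and the 5 genes nearest ATF4 and the member of largest range) were chosen with earlier results of these data known. Alternatives were pseudocounts of 0.1 and 10, other filters, median-ratio scaling, CPM, summed or longest rows and a 2-fold threshold. Promoters are RefSeq windows (GRCh38.p14), matched exactly to GRCh37, gene positions are GENCODE. All 10 genes matched. Python 3.11.15, numpy 2.4.6, pandas 2.3.3, scipy 1.17.1 and matplotlib 3.10.9 were used.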

Additional observations from a re-analysis of the deposited data

How the results depend on the processing

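No paired analysis was possible because each group holds 1 library, and for the same reason no library could be left out. At a threshold of 2-fold, 1 of the 10 genes was called with DDX3X siRNA (CHAC1) and 0 with GFP-WT DDX3X, 0 with T275M and 0 with G302V. With a pseudocount of 10 the calls were 0 for GFP-WT DDX3X, 1 for T275M (ATF3) and 0 for G302V. A minimum of 10 RPKM removed CHAC1 from the siRNA comparison, leaving 2 calls. The log2 ratio of CHAC1 there ran from -2.45 (pseudocount 0.1) to -0.60 (pseudocount 10). Of 40 ratios, 11 were past 1.5-fold, and 1 changed sign, SESN2 with G302V under median-ratio scaling (-0.01). Over all genes, the 132 higher and 122 lower calls with DDX3X siRNA became 208 and 81 under that scaling, the 254 and 32 with WT 168 and 44, the 290 and 51 with T275M 190 and 88, and the 128 and 98 with G302V 100 and 107. Over all genes a pseudocount of 0.1 gave 533 calls with DDX3X siRNA, 613 with WT, 744 with T275M and 490 with G302V, and a pseudocount of 10 gave 26, 14, 24 and 33. The scaling shifted ratios by 0.07, -0.09, -0.09 and -0.04 in the same order. Of the ATF4 targets, the 11 called lower with DDX3X siRNA were 6 with a pseudocount of 10 and 8 under median-ratio scaling, the 6, 4 and 3 called higher with WT, T275M and G302V were 0, 1 and 0 with a pseudocount of 10, a pseudocount of 0.1 added 2 lower with G302V, and the 8, 10 and 5 p53 targets called higher with WT, T275M and G302V were 1, 5 and 1 with a pseudocount of 10.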
